A study of Mus musculus with 3 samples.

Results

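The 9 genes that encode subunits of the Arp2/3 complex were selected by symbol (Actr2, Actr3, Arpc1a, Arpc1b, Arpc2, Arpc3, Arpc4, Arpc5 and Arpc5l), and all 9 were found among the 31053 genes of the count tables. The Arp2/3 complex is the assembly that starts new actin filaments as branches on the sides of existing ones. The actin-related proteins Arp2 and Arp3 (genes Actr2 and Actr3) form the template of the new filament. They sit on a frame of ArpC2 and ArpC4, joined by ArpC3, while ArpC1 and ArpC5 link the frame to Arp2 and to activators. ArpC1 and ArpC5 each come from a pair of related genes, Arpc1a or Arpc1b and Arpc5 or Arpc5l, so a complex can be built in several versions. The complex is switched on by proteins of the WASP, WAVE and WASH families, and it drives the membrane protrusions of crawling immune cells, fibroblasts and the Schwann cells that wrap axons. The related gene Actr3b, which is outside the list, was at or near 0 in every class, at most 9.6 CPM (counts per 1000000 UMIs), in mast-like cells.

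The data were single-cell RNA counts of mouse dorsal skin from 3 droplet libraries, 1 per group. The young control was 2.5 months old, carried Yap1 fl/fl and Wwtr1 fl/fl without Cre, and received tamoxifen. The YAP/TAZ knockout had the same age, floxed alleles and tamoxifen and also carried R26-CAG-CreER, a recombinase under a ubiquitous promoter, so it is not restricted to a cell type. The dose in both was 0.11 mg of tamoxifen per g of mouse by oral gavage, 2 days weekly over 4 weeks. The old control was a wild-type mouse of 24 months without treatment, so it differs from the young control in age, floxed alleles and tamoxifen together. Yap1 and Wwtr1 encode YAP and TAZ, transcriptional partners of the TEAD factors. The labels do not say whether animals were pooled, so each library is 1 sample. A unique molecular identifier (UMI) marks each captured RNA molecule near its 3' end, so levels of different genes can be compared without dividing by length, and CPM is a gene's share of a class's UMIs; levels are therefore relative to all RNA of the class. Where 3 values are given together, they stand in the order young control, knockout, old control.

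The libraries held between 52579262 and 95274423 UMIs over all deposited barcodes, and between 8765 and 11192 cells were left after filtering. Cells were named by markers, each class being called after the type its markers resemble. The unnamed share was 6.43%, 63.4% and 39.3% of cells. Fibroblast-like cells numbered 2407, 156 and 302, keratinocyte-like cells 2783, 79 and 2248, lymphoid-like cells 1190, 77 and 450, myeloid-like cells 731, 66 and 132 and Schwann-like cells 637, 431 and 491. Values of the knockout thus rest on fewer cells in most classes. Between 127 and 198 cell barcodes were shared by a pair of libraries. The knockout library had Ddx3y, a Y-linked gene, at 97.8 CPM, against 0 and 0.019 in the controls, and Xist at 0.242 CPM against 1744 and 1449.9. Sex therefore differs along with genotype and cannot be told apart from it. Wwtr1 was lower in the knockout in each of the 10 classes compared: fibroblast-like cells had 124, 21.9 and 114 CPM. Yap1 was at 59.1, 51.5 and 51.7 CPM in the same cells; the files do not show whether its 3' reads lie outside the deleted part, so this value checks nothing.

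The subunit genes lie on mouse chromosomes 1, 2, 5, 6 and 11 (build GRCm38, GENCODE annotation). Arpc1a, on chromosome 5 from 145083830 to 145108761, and Arpc1b, from 145114215 to 145130705, are neighbours on the same strand with 5453 bases between them, so this paralog pair is a tandem pair of protein-coding genes. Their coding sequences are 74.5% identical and share 0 words of 31 bases, so a read from one coding sequence does not match the other over that length. Arpc5 and Arpc5l are 71.3% identical and also share 0 such words. The stretches just before the first annotated base of the tandem genes are shown because the pair differs most between cell classes; they are RefSeq sequences on GRCm38.p6, plus strand, 5' to 3', from chr5:145083619-145083829 and chr5:145114006-145114214.

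Arpc1a: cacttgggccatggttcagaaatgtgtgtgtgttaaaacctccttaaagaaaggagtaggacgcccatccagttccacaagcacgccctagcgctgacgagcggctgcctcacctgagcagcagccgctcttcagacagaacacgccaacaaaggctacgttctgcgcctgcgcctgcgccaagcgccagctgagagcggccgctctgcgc
Arpc1b: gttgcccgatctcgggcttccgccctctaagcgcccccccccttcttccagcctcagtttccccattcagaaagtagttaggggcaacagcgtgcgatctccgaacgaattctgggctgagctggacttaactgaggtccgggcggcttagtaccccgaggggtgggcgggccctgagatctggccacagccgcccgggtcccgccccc

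YAP and TAZ reach DNA through TEAD factors, so the core TEAD motif GGAATG was searched for on both strands in the 250 bases before each RefSeq gene start. It occurred in 1 of the 8 subunit promoters in the RefSeq table and in 12.6% of all 27025 promoters of the same length. The match was in Arpc2, at chr1:74236303-74236328, with the motif beginning 204 bases before the RefSeq gene start and inside the longer GENCODE gene; capitals mark the motif.

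Arpc2: cggacaacggGGAATGacaggtgagc

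A match in these windows is a description of letters only. The 3' ends, where reads fall, were checked for copies elsewhere. Of the 470 words of 31 bases in the last 500 bases, 57.7% of those of Actr3 also occurred in the processed pseudogene Gm8822, and 20.9% of those of Arpc1b occurred in other genes, mainly the processed pseudogene Gm5637. Levels of Actr3 and Arpc1b are uncertain to that extent. Arpc4 overlaps Ttll3, Arpc5l overlaps Wdr38 and Arpc3 overlaps Gm42829 on the same strand, so reads from the overlaps cannot be assigned with certainty. On the opposite strand Arpc1a overlaps Kpna7, Arpc1b Pdap1 and Arpc5l the ribosomal protein gene Rpl35, and the sources used here do not state whether counting used strand, so these levels carry that uncertainty too.

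Summed over the 9 genes, subunit RNA had its highest level in myeloid-like cells in both controls. In the knockout the counting intervals of myeloid-like and Schwann-like cells overlapped. The myeloid-like class, which pools macrophages, monocytes, dendritic and Langerhans cells, had 3329, 3397 and 3158 CPM. It held 545, 21 and 106 dendritic or Langerhans-like cells and 186, 45 and 26 macrophage or monocyte-like cells. The knockout's mix thus differed from that of the controls, so its myeloid-like ratios do not compare like with like. Lymphoid-like cells (T, NK and innate lymphoid) had 2679, 2653 and 2498 CPM. Fibroblast-like cells, which make the dermal matrix, had 1163, 1538 and 1081 CPM, the lowest class in the young and the old control. Schwann-like cells, at 2027.3, 3325 and 2072 CPM, stood between these classes in the controls and above the lymphoid-like class in the knockout. A large part of the Schwann-like sum came from Arpc1a and Arpc1b alone. Most other subunit genes there were near the fibroblast level, as given below, so this rank is not one of all subunits. Keratinocyte-like cells had 1420.1, 1409.7 and 1335 CPM. Myeloid-like and lymphoid-like cells were above fibroblast-like cells in each of the 3 libraries, without overlap.

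**Figure D1:**
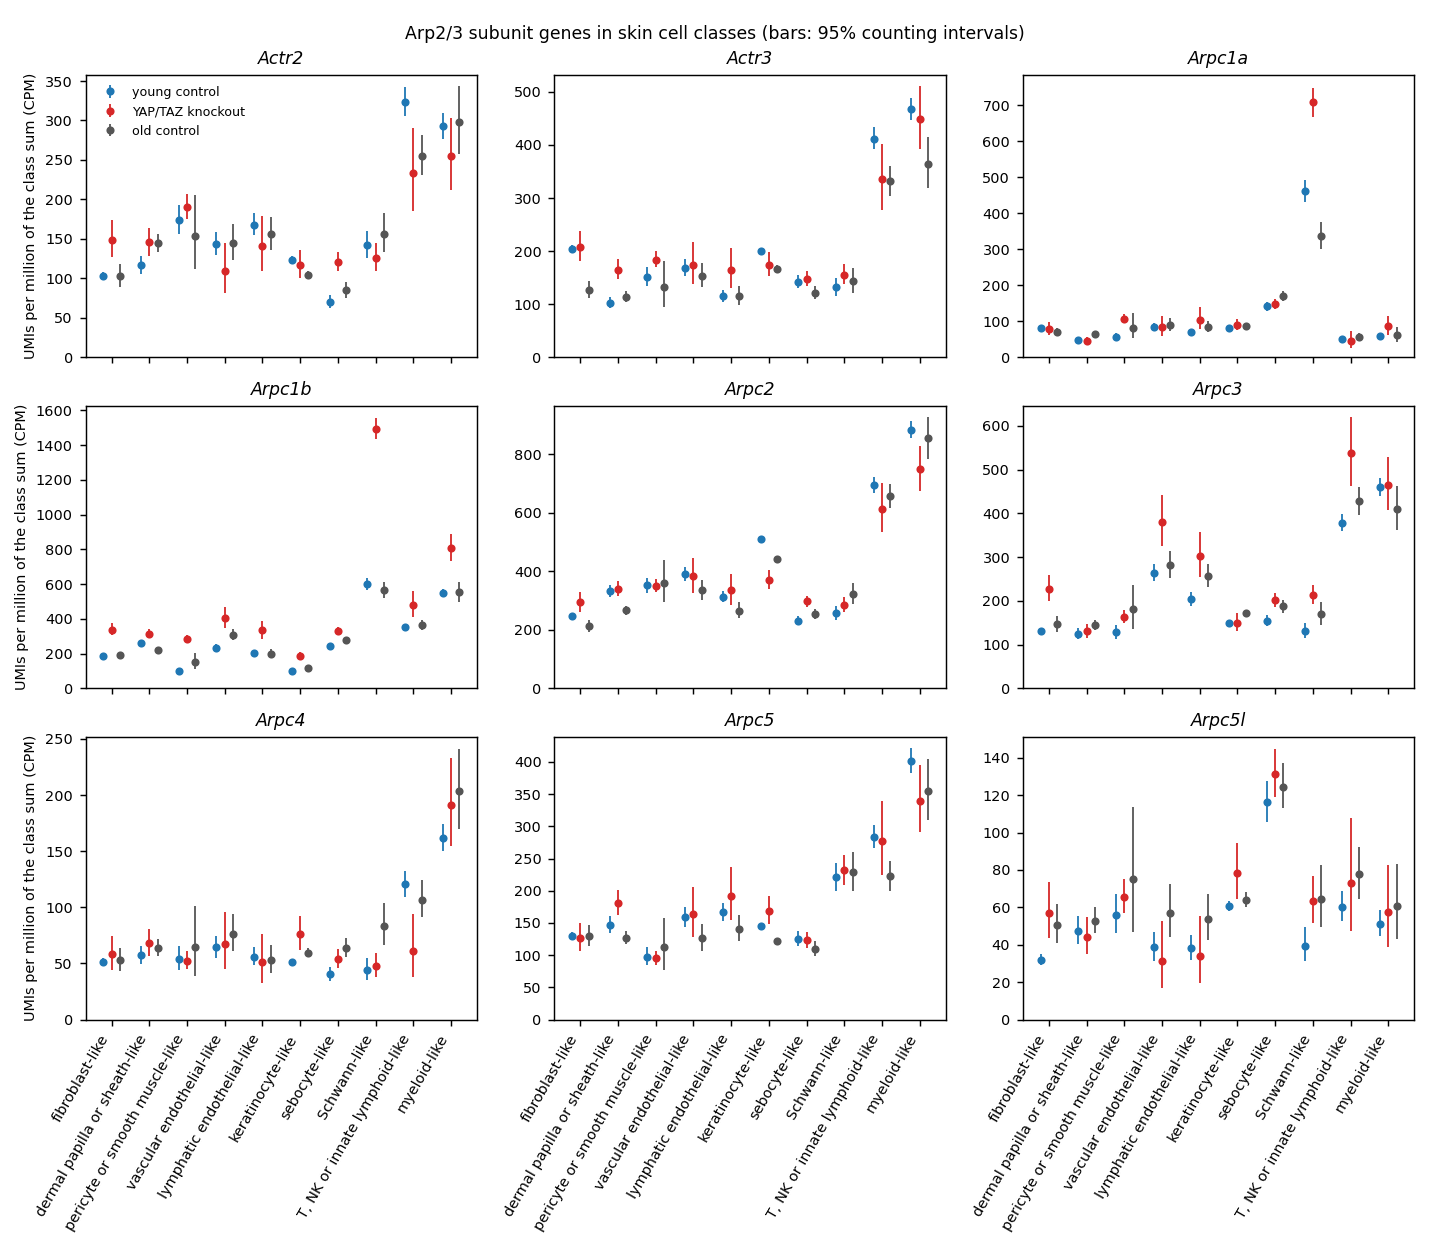
Level of each subunit gene (CPM of the class sum, linear axis) in 10 skin cell classes, 1 point per library with its 95% exact counting interval. In every library the top value of Actr2, Actr3, Arpc2, Arpc3, Arpc4 and Arpc5 is in the lymphoid-like or the myeloid-like class. That of Arpc1a and Arpc1b is in Schwann-like cells and that of Arpc5l in sebocyte-like cells. In both controls the Arpc1b intervals of Schwann-like and myeloid-like cells overlap.

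Actr2 encodes Arp2. Its level was 324, 233 and 255 CPM in lymphoid-like cells and 293, 254 and 299 CPM in myeloid-like cells. Fibroblast-like cells had 103, 149 and 102 CPM and sebocyte-like cells 70.2, 121 and 84.7 CPM. Each library therefore had its highest Actr2 in an immune class. In the young control the order then ran through mast-like (211 CPM), pericyte/smooth muscle-like (174 CPM), lymphatic endothelial-like (168 CPM), vascular endothelial-like (144 CPM), Schwann-like (143 CPM), keratinocyte-like (124 CPM) and dermal papilla or sheath-like cells (116 CPM). Counting intervals of neighbours in this order overlapped, except at the step from fibroblast-like to melanocyte-like cells (83.7 CPM). In the old control, dendritic or Langerhans-like cells led the unpooled classes at 297 CPM and sebocyte-like cells came last. In the knockout, pericyte/smooth muscle-like cells followed the immune classes at 191 CPM, and the others lay from 149 CPM in fibroblast-like cells down to 110 in vascular endothelial-like cells with no step between neighbours beyond their intervals.

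Between classes, the 3 libraries served as blocks in edgeR's quasi-likelihood test, with Benjamini-Hochberg adjustment over all genes (n = 3 libraries per class, which differ in age, genotype and sex). Class sums of a library also share its free RNA and its depth. In the lymphoid-like class 8 of 9 subunit genes were higher than in fibroblast-like cells and 1, Arpc1a, was lower. Among all 12958 genes tested, 21.2% were higher and 23.8% lower in that contrast. The median log2 difference was 0.89 over the 9 genes and 0.02 over all genes. Actr2 RNA was higher by a log2 fold of 1.12 ± 0.18 (SE, adjusted p = 2.74e-05), in 3 of 3 libraries.

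Arpc3, the bridge subunit, had 379, 537 and 428 CPM in lymphoid-like cells and 130.4, 228 and 146 CPM in fibroblast-like cells. The ranges did not overlap, and the log2 fold was 1.32 ± 0.16 (SE, adjusted p = 9.99e-07). Arpc2, a frame subunit, had 695, 613 and 656 CPM against 246, 294 and 214 CPM, a log2 fold of 1.28 ± 0.15 (SE, adjusted p = 7.15e-07). Actr3 and Arpc5 differed by 0.92 and 0.89 on the log2 scale. These 5 calls (Actr2, Actr3, Arpc2, Arpc3 and Arpc5) held when any 1 library was left out and under every other setting tried. The other 4 did not: without the young control the adjusted p of Arpc1a was 0.259, of Arpc1b 0.0734, of Arpc4 0.143 and of Arpc5l 0.219, and without the old control they were 0.0761, 0.155, 0.0849 and 0.156.

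Myeloid-like cells had 7 of 9 subunit genes above fibroblast-like cells and 0 below. Of the 13183 genes in that fit, 18.9% were higher and 23.5% lower. Arpc4, the other frame subunit, had 162, 191 and 203 CPM in myeloid-like cells and 51.2, 58.2 and 52.7 CPM in fibroblast-like cells, a log2 fold of 1.81 ± 0.21 (SE, adjusted p = 3.17e-07). Arpc2 followed at 1.78 ± 0.15 (SE, adjusted p = 5.82e-09), from 883, 747 and 854 CPM. Actr2, Actr3, Arpc1b, Arpc3 and Arpc5 lay between 1.31 and 1.55 on the log2 scale. All 7 calls held without any 1 library and under each setting tried. Arpc1a, at 59, 85.5 and 61 CPM, had a log2 fold of -0.15 ± 0.24 (SE, adjusted p = 0.668), and Arpc5l had 0.38 ± 0.19 (SE, adjusted p = 0.102). The median log2 fold was 1.5 over the 9 genes and -0.10 over all genes. Markers of macrophages were at 27.7 to 111 CPM in sum in fibroblast-like cells and at 5447 to 16072 CPM in myeloid-like cells, so few myeloid transcripts were present in the comparison class.

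**Figure D2:**
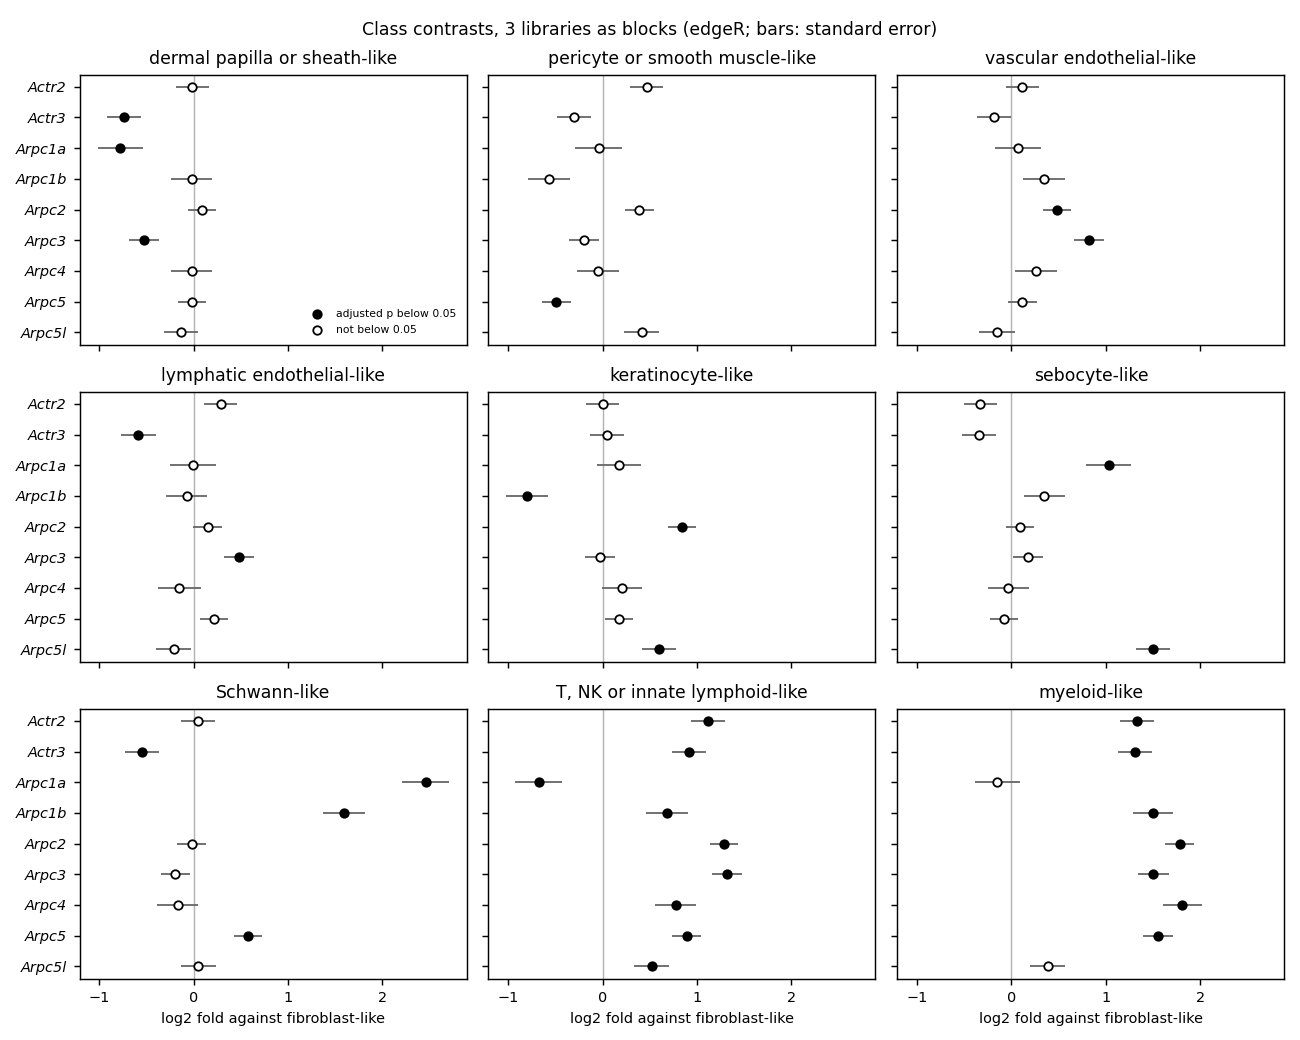
Log2 fold of each subunit gene in 9 classes against fibroblast-like cells, from edgeR's quasi-likelihood fit with the 3 libraries as blocks; bars are the standard error and filled points have an adjusted p below 0.05. The 2 immune panels are shifted to the right for most genes, with Arpc1a left of or at 0, while the Schwann-like panel has Arpc1a and Arpc1b alone beyond a log2 fold of 1.

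Schwann-like cells, the glia of skin nerves, had the ArpC1 genes far above fibroblast-like cells. Arpc1a had 461, 708 and 337 CPM, against 79.9, 78.3 and 69.3 CPM in fibroblast-like cells. The next class in order, sebocyte-like cells, had 141, 147 and 171 CPM. Arpc1a was thus higher by a log2 fold of 2.46 ± 0.25 (SE, adjusted p = 4.52e-07), with no overlap between the classes. Arpc1b had 599, 1493 and 564 CPM, against 187, 339 and 191 CPM, a log2 fold of 1.59 ± 0.22 (SE, adjusted p = 1.59e-05). Of all genes, 13.8% were higher and 15.1% lower in Schwann-like cells. Both ArpC1 calls held without any 1 library, with log2 folds from 2.11 to 2.64 for Arpc1a and from 1.32 to 1.73 for Arpc1b over all settings.

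Most of the other subunit genes in Schwann-like cells were near the fibroblast level. Actr2 (log2 fold 0.05), Arpc2 (-0.02), Arpc3 (-0.19), Arpc4 (-0.17) and Arpc5l (0.05) did not pass the test. Arpc5 passed at 0.57 and Actr3 at -0.55, but without the young control their adjusted p was 0.0661 and 0.423, without the knockout 0.0527 and 0.0715 and without the old control 0.0837 and 0.0687. The class carried all 5 Schwann markers reported here (Sox10, Mbp, Cdh19, Scn7a and Egfl8) in each library, summing to 9359, 4760.3 and 4605 CPM, against 153, 119 and 87.4 CPM in fibroblast-like cells.

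Within the Schwann-like class the ArpC1 pair split between its 2 clusters. The cluster led by Scn7a, Kcna2 and Cadm2, genes not of myelin, held 339, 318 and 433 cells, and the cluster with Prx and Mbp, which encode myelin proteins, among its leading genes held 298, 113 and 58 cells. Arpc1b made up 75.2% (95% Clopper-Pearson interval 72.4 to 77.8) of the pair's UMIs in the Scn7a cluster of the young control, with 78.8% (77.1 to 80.4) for the knockout and 70.9% (67.2 to 74.4) for the old control. In the Mbp cluster the shares were 37.5% (34.5 to 40.6), 46.8% (44 to 49.6) and 41.2% (35 to 47.6). The intervals of the 2 clusters were apart in all 3 libraries, so Arpc1b led in one and Arpc1a in the other. In CPM, Arpc1a was 279, 521 and 236 in the Scn7a cluster and 626, 975 and 734 in the Mbp cluster. Arpc1b was 847, 1937 and 577 in the first and 375, 857 and 514 in the second. The subunit genes were kept out of the clustering, and the shares are a description with 1 library per group.

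Other classes used the paralogs differently. In myeloid-like cells Arpc1b, whose loss in humans causes an immune deficiency, made up 90.3%, 90.4% and 90.1% of the ArpC1 pair, and in lymphoid-like cells 87.2%, 91.6% and 86.9%. Keratinocyte-like cells had 55.1%, 67.2% and 58%, and fibroblast-like cells 70.1%, 81.2% and 73.4%. Among keratinocyte clusters, the one led by Krt10 and Krt1, keratins of the layers above the basal one, had the lowest share, 39.3% (36.9 to 41.7) in the young control and 32.5% (28.9 to 36.2) in the old control; the other keratinocyte clusters of these libraries lay between 55.9% and 68.2%. The knockout had 8 cells in that cluster, too few to give a value.

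The ArpC5 pair was about even in sebocyte-like cells, the lipid-producing cells of the hair follicle gland. Arpc5l had 116, 131 and 125 CPM there, against 32.1, 57.3 and 50.7 CPM in fibroblast-like cells, without overlap. The log2 fold was 1.5 ± 0.18 (SE, adjusted p = 1.29e-06). Arpc1a was also higher in sebocyte-like cells (log2 fold 1.03 ± 0.24, SE, adjusted p = 0.00132), and both calls held under all settings tried; 24.1% of all genes were higher in that contrast. Arpc5l made up 48%, 51.5% and 53.2% of the ArpC5 pair in sebocyte-like cells, each with an interval that held 50%, and 11.3%, 14.5% and 14.7% in myeloid-like cells. The knockout's sebocyte-like cells came from another cluster (led by Elovl4 and Elovl6) than those of the controls (led by Akr1c18 and Cyp2g1). Pericyte/smooth muscle-like cells had 36.5%, 40.8% and 40%.

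**Figure D3:**
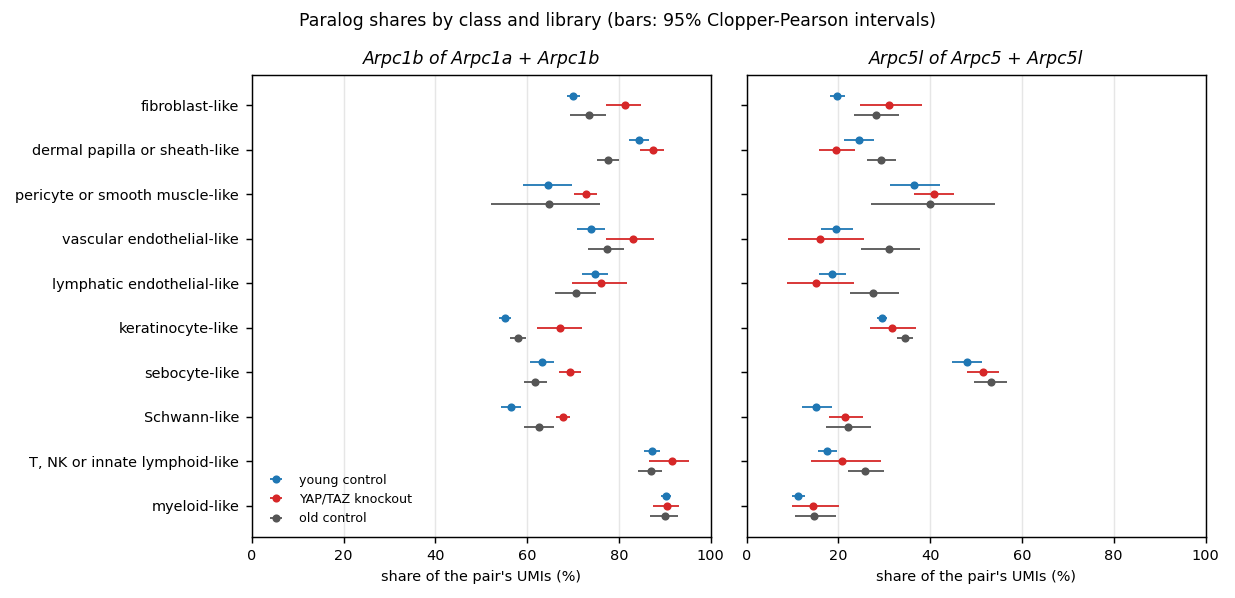
Share of Arpc1b in the UMIs of Arpc1a plus Arpc1b (left) and of Arpc5l in those of Arpc5 plus Arpc5l (right), in percent, by class and library with 95% Clopper-Pearson intervals. Myeloid-like cells lie near 90% for Arpc1b and sebocyte-like cells near the middle of the axis for Arpc5l, in all 3 libraries.

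Keratinocyte-like cells had more Arpc2, at 509, 371 and 441 CPM, than fibroblast-like cells (log2 fold 0.84 ± 0.15, SE, adjusted p = 9.21e-05), while 21% of all genes were higher and 25% lower. Their Arpc5l was higher (0.60, adjusted p = 0.0087) and their Arpc1b lower (-0.80, adjusted p = 0.00513); without the young control both had an adjusted p of 0.105, and without the old control that of Arpc1b was 0.058. Vascular endothelial-like cells had Arpc3 at 265, 379.9 and 281 CPM, above the fibroblast level in each library (log2 fold 0.82 ± 0.16, SE, adjusted p = 0.000458; 13.7% of all genes higher). Arpc2 passed there too at 0.48, with an adjusted p of 0.158, 0.094 or 0.187 once the young control, the knockout or the old control was left out. Lymphatic endothelial-like cells (Arpc3 0.48 and Actr3 -0.59 on the log2 scale; 12.8% of all genes higher, 16.1% lower) and dermal papilla or sheath-like cells (Actr3 -0.74, Arpc1a -0.78 and Arpc3 -0.52; 14.4% lower) had calls that were all lost without the young control and without the old control. The same was true of the only call in pericyte/smooth muscle-like cells, Arpc5 at -0.49 (13.9% of all genes lower). Over these 3 classes the adjusted p then ran from 0.0506 to 0.436, and the Arpc3 call in dermal papilla or sheath-like cells was also lost without the knockout (adjusted p = 0.258).

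Genes that control the complex were counted in the same contrasts, in which 18.9% of all genes were higher and 23.5% lower in myeloid-like cells, and 21.2% and 23.8% in lymphoid-like cells. Of 5 genes of the WASP family and its partners, 2 were higher and 1 lower in lymphoid-like cells, and 1 was higher and 1 lower in myeloid-like cells, the latter close to the shares of all genes. Was, the blood-cell WASP, had 50.3, 33.8 and 39.1 CPM in myeloid-like cells and 0.483, 0 and 0 CPM in fibroblast-like cells (adjusted p = 3.99e-08). Wasl, the broadly used N-WASP, went the other way, from 103, 95.4 and 93.1 CPM in fibroblast-like to 30.5, 35.8 and 32.8 CPM in myeloid-like cells (log2 fold -1.54 ± 0.17, SE, adjusted p = 1.5e-07).

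The WAVE complex, which activates Arp2/3 at the leading edge, had 7 of its 11 genes higher and 3 lower in myeloid-like cells, and 3 higher and 4 lower in lymphoid-like cells, against the shares of all genes given above (18.9% higher in myeloid-like, 21.2% in lymphoid-like cells). Nckap1l, its blood-cell subunit, had 92.8, 85.5 and 92.2 CPM in myeloid-like cells and 1.59, 0 and 0 CPM in fibroblast-like cells (adjusted p = 1.03e-09). Its paralog Nckap1 had 12.2, 21.9 and 18.8 CPM against 84.5, 104 and 83.2 CPM (log2 fold -2.44 ± 0.20, SE, adjusted p = 2.88e-09). Among other activators, Hcls1 was higher in both immune classes (log2 fold 5.66 in myeloid-like and 5.22 in lymphoid-like cells) and its relative Cttn, cortactin, was lower (-2.35 and -2.84). Of 9 inhibitors and debranching factors, 5 were higher and 1 lower in myeloid-like cells and 4 higher and 1 lower in lymphoid-like cells, with Coro1a and Gmfg among the higher genes and Arpin, which inhibits the complex, the lower one. Of 5 WASH complex genes, which act on endosomes, 0 passed in myeloid-like cells by edgeR and 1, Washc4, was lower in lymphoid-like cells. All 3 capping protein genes were higher in myeloid-like cells, and 2 of 3 in lymphoid-like cells. Of 6 actin-related proteins outside the complex, 0 were higher and 1 lower in myeloid-like cells.

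In Schwann-like cells 2 of 11 WAVE genes were higher and 1 lower, close to the 13.8% and 15.1% of all genes. Cyfip1, the subunit that binds Rac, was higher by a log2 fold of 0.96 ± 0.20 (SE, adjusted p = 0.00083), from 208, 268 and 150.4 CPM against 89.8, 93.5 and 86.9 CPM. Of the inhibitors and debranching factors, 2 of 9 were higher, one of them Gmfb (log2 fold 1.16 ± 0.21, SE, adjusted p = 0.000266), which takes branches apart.

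The YAP/TAZ knockout was set against the young control within each class. With 1 library a group there is no test, and each ratio of CPM carries an exact 95% interval that covers counting error only. A ratio counts as past the rule when it is at least 1.5 or at most its inverse, its interval leaves out 1 and the mean level is at least 20 CPM. In fibroblast-like cells 3 of 9 subunit genes were past it as higher and 0 as lower; 16.5% of all 6091 genes were past it as higher and 10.0% as lower. Arpc1b had 187 CPM in the young control and 339 in the knockout, a ratio of 1.81 (1.62 to 2.02). Arpc5l had 32.1 and 57.3 CPM, a ratio of 1.78 (1.34 to 2.34), and Arpc3 130.4 and 228 CPM, a ratio of 1.75 (1.52 to 2), which was 1.30 with an interval that held 1 once cells were thinned to 1500 UMIs. Actr2 had a ratio of 1.45 (1.22 to 1.71), short of the rule, and Arpc2 one of 1.20 (1.06 to 1.34). Intervals of Actr3, Arpc1a, Arpc4 and Arpc5 held 1. The median log2 ratio was 0.26 over the 9 genes and 0.16 over all genes tested.

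Of the subunit genes, Arpc1b alone had a knockout ratio whose interval was above 1 in every class compared. The interval lay above 1 in 10 of 10 classes, and 26 of 3616 genes measured in all 10 classes (0.719%) had that. In cells thinned to 1500 UMIs the ratio was 1.29 (0.958 to 1.7) in myeloid-like and 1.49 in vascular endothelial-like cells. The cell mix of the myeloid-like class also differed between the libraries. Unthinned, Arpc1b was past the 1.5-fold rule in 6 classes, as were 77 genes (2.13%) in 6 or more. Ratios were 2.81 (2.41 to 3.28) in pericyte/smooth muscle-like, 2.49 (2.32 to 2.67) in Schwann-like and 1.85 (1.62 to 2.1) in keratinocyte-like cells. They were 1.71 (1.44 to 2.02) in vascular endothelial-like and 1.62 (1.35 to 1.93) in lymphatic endothelial-like cells. The keratinocyte-like ratio sets 79 knockout cells against 2783 of the young control. Keratinocyte clusters differed in their Arpc1b share, and the part of the cluster mix in this ratio was not tested. Single classes had 11.6% of genes past the rule as higher in Schwann-like, 9.19% in pericyte/smooth muscle-like, 7.62% in keratinocyte-like, 6.56% in vascular and 6.80% in lymphatic endothelial-like cells. The smallest ratios were 1.20 (1.08 to 1.33) in dermal papilla or sheath-like, 1.35 (1.14 to 1.59) in lymphoid-like, 1.36 (1.25 to 1.49) in sebocyte-like and 1.47 (1.32 to 1.63) in myeloid-like cells. The old control gave ratios between 0.837 and 1.47 over 11 classes, with 0 past the rule.

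**Figure D4:**
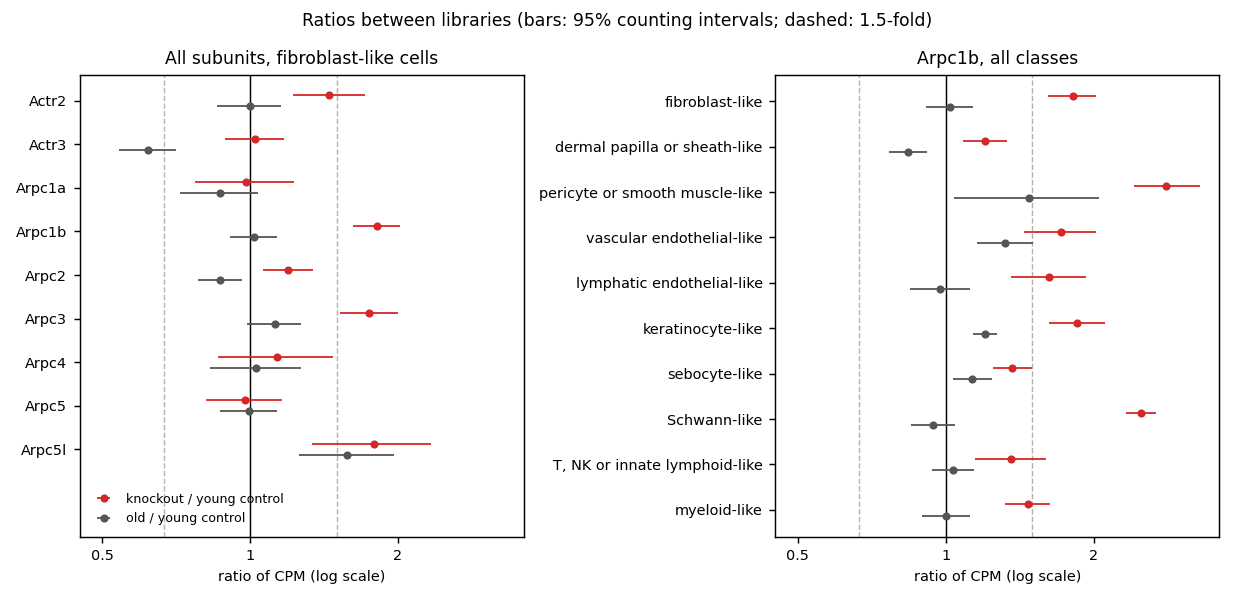
Ratio of CPM, knockout over young control (red) and old over young control (grey), on a log axis with 95% counting intervals, for the 9 subunit genes in fibroblast-like cells (left) and for Arpc1b in 10 classes (right). All 10 red intervals of Arpc1b lie above 1, while the grey points spread on both sides of it.

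Ratios of Arpc1b were also above 1 within single clusters. In Schwann-like cells it was 2.29 (2.1 to 2.49) in the Scn7a cluster and 2.28 (2 to 2.6) in the Mbp cluster, and in the main fibroblast cluster 1.98 (1.74 to 2.26). Pericyte/smooth muscle-like cells of the young control lay mostly in the cluster led by Rgs5 and those of the knockout in the one led by Actg2 and Des; in the Rgs5 cluster the ratio was 1.72 (1.32 to 2.24). Outside the named cells the knockout also had the highest Arpc1b. Barcodes that failed the filter had 142, 495 and 217 CPM, and cells without a name 165, 396 and 214 CPM. The mix of both sets differed between libraries, so these levels do not compare like with like. Red blood cell markers summed to 40668, 3995 and 8428 CPM in the failed barcodes. Keratinocyte markers summed to 13367, 6823 and 13152 CPM in the unnamed cells.

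Schwann markers moved with it in some classes. Over the 5 markers reported, their sum was 104 CPM in the young control and 567 in the knockout in pericyte/smooth muscle-like cells, 42.4 and 360.03 in sebocyte-like cells and 139 and 297 in vascular endothelial-like cells, where Sox10 was at 0 in the knockout. In myeloid-like cells the sum was 175 and 197 CPM. It was below the young control in the knockout's fibroblast-like cells (153 and 119 CPM) and lymphatic endothelial-like cells (75.7 and 59.8 CPM). The same held in keratinocyte-like (94.8 and 48.1 CPM), dermal papilla or sheath-like (76.7 and 33.4 CPM) and lymphoid-like cells (249 and 123 CPM). Cdh19 was at 0 in the knockout's lymphoid-like cells. The Schwann-like class itself had 9359 CPM in the young control and 4760.3 in the knockout. A lower sum in another class therefore cannot gauge how much Schwann RNA it held. The part of free RNA, of sex and of the mitochondrial share (a median of 10.3% per cell in the knockout and 5.01% in the young control) in these ratios was not tested.

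Other subunit genes were past the rule in the knockout as well. In Schwann-like cells Arpc1a (1.53, 1.41 to 1.68), Arpc3 (1.63, 1.38 to 1.92) and Arpc5l (1.60, 1.18 to 2.18) joined Arpc1b. In that class 11.6% of genes were past the rule as higher. Once cells were thinned to 1500 UMIs, Arpc3 (1.48) and Arpc5l (1.497) fell short of it. Arpc1a was at 1.91 (1.54 to 2.38) in pericyte/smooth muscle-like cells, but at 1.10 with each library clustered alone. In lymphatic endothelial-like cells it was at 1.51 (1.09 to 2.06). Of all genes, 9.19% in the former and 6.80% in the latter class were past the rule as higher. Actr2 passed in sebocyte-like cells at 1.72 (1.46 to 2.02), where 20% of genes were past the rule as higher. It was 1.20 with the stricter barcode filter, and the knockout's sebocyte-like cells came from another cluster than those of the controls. Actr3 passed in dermal papilla or sheath-like cells at 1.61 (1.38 to 1.88), where 15.9% of genes did. The one ratio past the rule as lower was Arpc4 in lymphoid-like cells, 0.508 (0.312 to 0.787), 121 and 61.3 CPM, on 21 UMIs in the knockout. In that class 13.5% of genes were past it as lower. The Arpc4 ratio was lost in thinned cells and with the stricter barcode filter (0.742). Actr2 ranged from 0.722 to 1.72 over the 10 classes, with an interval above 1 in 3 and below 1 in 1, and Arpc2 was past the rule in 0 classes.

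Old and young control were compared in the same way. In fibroblast-like cells Actr3 had 126 CPM in the old and 203 in the young control, a ratio of 0.62 (0.542 to 0.707), and Arpc5l was at 50.7 against 32.1 CPM, a ratio of 1.58 (1.26 to 1.97). These were the 2 subunit genes past the rule in that class, where 7.50% of all genes were past it as lower and 9.11% as higher. Actr2 had 102 and 103 CPM there, a ratio of 0.997 (0.856 to 1.16). The median log2 ratio was -0.00 over the 9 genes and 0.05 over all genes. The knockout and the old control were both divided by the same young control, so Arpc5l above 1 in both shares that denominator.

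In the other classes old control ratios past the rule were Arpc4 (1.89, 1.38 to 2.59) and Arpc5l (1.63, 1.15 to 2.31) in Schwann-like cells, where 9.76% of genes were past it as higher, Arpc4 in sebocyte-like cells (1.58, from 1.28 to 1.96; 11.7% of genes) and, as lower, Arpc2 in melanocyte-like cells (0.665, 0.572 to 0.769; 11.1% of genes). Both Schwann-like ratios were lost once cells were thinned to 1500 UMIs, where Arpc5l was at 1.42. The mix of Schwann clusters given above also differed between the young and the old control. Arpc2 in melanocyte-like cells stayed past the rule in 2 of 7 other settings, with ratios from 0.625 to 0.703. Arpc4 in sebocyte-like cells stayed past it in 8 of 8. Over 11 classes Arpc5l had ratios from 1.03 to 1.63, with an interval above 1 in 5. Arpc3 ranged from 0.889 to 1.41, with an interval above 1 in 7. Arpc5 had an interval below 1 in 5 classes and above 1 in 0, and Actr3 likewise 5 and 0.

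Among regulators in fibroblast-like cells, 1 of 3 measured upstream GTPases and adaptors was past the rule in the knockout: Cdc42, which activates N-WASP, at 402 against 263 CPM, a ratio of 1.53 (1.38 to 1.69). Gmfb was past it as lower in both comparisons (0.643 for the knockout, 0.655 for the old control). Coro2b was past it as higher in the knockout (1.57) and Wipf2 as lower in the old control (0.629). In the WAVE, WASH and capping protein lists 0 genes were past the rule in either comparison. Of all genes in fibroblast-like cells, 16.5% were past it as higher and 10.0% as lower in the knockout. The old control had 9.11% and 7.50%. The lists are short and these ratios carry no test, so the counts are not read as a result about the lists.

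Across the 33 class sums of the 3 libraries with at least 50 cells, the subunit genes did not all follow one pattern. Spearman's rho between pairs of them ran from -0.44 (Arpc1a with Arpc2) to 0.67 (Arpc1b with Arpc5), and was 0.08 for Arpc1a with Arpc1b and -0.23 for Arpc5 with Arpc5l. Among 6784 genes, Cdc42 was nearest to Actr2 (rho 0.86), ahead of Crem (0.80), Pitpna, Tmem160 and Cap1. Arpc1b was nearest to Rap1gds1 (0.80), Arpc1a to Ank3 (0.77) and Arpc5l to Atp5d (0.87). The sums share libraries and depth, so these values are descriptions.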

How the data were processed

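The deposited matrices are unnormalized UMI counts that the authors made, per the file headers, using Cell Ranger 3.1.0. Per the submitters' processing notes, the build was mm10 and Seurat 3.1.5 was used. The suspension came from collagenase digestion, per the labels' protocols. Barcodes with at least 500 genes, 1000 UMIs and a mitochondrial share up to 15% were kept, and the 8% with the highest doublet scores per library were removed, because the doublet caller's own threshold had not worked. Cells of all libraries were clustered together (scanpy 1.11.5, Leiden resolution 1, 2000 variable genes without subunit and pathway genes). Clusters were named from marker lists; the naming thresholds were set after cluster tables were seen. Some markers used for naming are not reported here and are left out of the marker sums. The subunit genes, lists and tests were chosen with earlier results of these data known.

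Counts were summed per class and library and tested with edgeR 4.0.16 (quasi-likelihood, TMM, filterByExpr, library as block, adjusted p below 0.05) where each library had at least 30 cells; DESeq2 1.42.0 was an alternative. The macrophage and dendritic contrasts could not be fitted at that minimum, so a pooled myeloid class was added, with sebocyte and dermal papilla contrasts, after the data were seen. Levels need 50 cells. Library ratios use a binomial split of both counts; intervals cover counting error only. Named genes are all subunit genes and, from each regulator list and comparison, at most 3 per direction past the test or the ratio rule. The test was run on simulated counts drawn independently from a shared gene profile. These had no library effects on genes and no shared free RNA, so that check does not cover either. Depth was 52579262 to 95274423 UMIs per library.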

Additional observations from a re-analysis of the deposited data

How the results depend on the processing

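No paired analysis was possible for the knockout and old control ratios because each group has 1 library. Between classes the library is the block. Over the settings tried, 0 called contrasts or ratios turned direction, while values that were not called crossed 0 or a ratio of 1 in places; of the subunit class contrasts under other settings, 651 kept their side of the threshold, 70 lost and 8 gained a call. Counts of subunit genes called against fibroblast-like cells stayed within 1.5 times in myeloid-like (7 to 8) and sebocyte-like cells (2). Leaving out 1 library at a time gave 5 to 9 in lymphoid-like (9 with all), 2 in Schwann-like (4), 1 to 3 in keratinocyte-like (3), 1 in vascular (2) and 0 to 2 in lymphatic endothelial-like (2), 0 to 2 in pericyte/smooth muscle-like (1) and 0 to 2 in dermal papilla or sheath-like cells (3). With no replicate block, 0 were called in lymphatic endothelial-like and 0 in pericyte/smooth muscle-like cells; Arpc1b and Arpc5l in lymphoid-like, Arpc1b in keratinocyte-like, Actr3 in Schwann-like and Arpc3 in dermal papilla or sheath-like cells also lost their call. With no filter on low counts the counts were 1 in vascular, 0 in lymphatic endothelial-like and 0 in pericyte/smooth muscle-like cells. DESeq2 called 4 in pericyte/smooth muscle-like cells and edgeR with its size factors 2. With each library clustered alone there were 1 in vascular and 1 in lymphatic endothelial-like, 0 in pericyte/smooth muscle-like and 1 in dermal papilla or sheath-like cells. Cells thinned to 1500 UMIs gave 1 in keratinocyte-like, 1 in vascular, 0 in lymphatic endothelial-like, 0 in pericyte/smooth muscle-like and 0 in dermal papilla or sheath-like cells. In fibroblast-like cells the stricter 2-fold rule left 0 subunit genes for the knockout, and 0 for the old control; other settings gave 3 and 2, though in thinned cells Actr2 (1.54) was past it and Arpc3 (1.30) was not. Of 16 knockout ratios past the rule over all classes, 8 stayed past 1.5-fold under every other setting and 8 did not; of 6 old control ratios, 3 did and 3 did not. The lost knockout ratios include Arpc1a in pericyte/smooth muscle-like (1.10 to 2.35) and lymphatic endothelial-like cells (1.40 to 1.97) and Actr2 in sebocyte-like cells (1.20 to 1.78). The lost old control ratios were Arpc4 and Arpc5l in Schwann-like cells and Arpc2 in melanocyte-like cells. Of single-gene ratios under other settings, 172 moved and 1376 did not; of paralog shares, 49 moved and 253 did not. Over the settings, the Actr2 ratio in fibroblast-like cells ranged from 1.38 to 1.54 for the knockout and from 0.93 to 1.02 for the old control. The cause of these moves was not tested. Small classes limit the depth: 57 lymphatic endothelial-like and 66 myeloid-like knockout cells.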
